A study of Mus musculus with 4 samples.

Results

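The genes described here are 39 mouse genes of the amino acid arm of the cellular stress response: 14 ATF4 targets and stress genes, 12 enzymes of serine, folate, cysteine and proline metabolism, and 13 cytosolic aminoacyl-tRNA synthetases. A probe of the array belonged to a member when its platform gene symbol, in the current or an older form, was that of the member. By this rule 37 of the 39 members had at least 1 probe, with 78 probes in all, and Gdf15 and Pycr1 were not analysed here. Of these members 32 passed the detection filter, among 10858 genes tested.

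RNA was measured in sciatic nerve on 4 Illumina bead arrays, 2 for LKB1-SCKO mice and 2 for control mice. LKB1-SCKO mice lack the kinase LKB1 (gene Stk11) in Schwann cells, and control mice carried the floxed Stk11 gene but no Cre recombinase. The mixed-strain mice (FVB/C57BL/6) had reached postnatal day 60. Each array held a pool of RNA from 3 nerves of 3 different mice, 6 mice per genotype. The Cre driver is not given in the sources used here. Whole nerve was used, so that cells other than Schwann cells add RNA and keep Stk11, and fewer cells of a type cannot be told apart from less RNA per cell. The age precedes the loss of axons in these mutants, and the comparison asks which transcripts of the nerve differ before that loss.

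ATF4 is a transcription factor whose protein is made when the initiation factor eIF2 is phosphorylated, as happens in amino acid shortage, in stress of the endoplasmic reticulum and in mitochondrial stress. It binds a composite DNA element shared with C/EBP proteins and raises genes for amino acid synthesis, amino acid uptake and tRNA charging, together with CHOP (gene Ddit3), TRIB3 and other regulators of the response. Serine made by PHGDH, PSAT1 and PSPH feeds sphingolipids, of which myelinating Schwann cells make large amounts, and gives folate its carbon units for nucleotide synthesis. Synthetases join each amino acid to its tRNA, and dominant mutations of several of them, GARS1 and AARS1 among them, cause inherited neuropathy in humans.

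The letters of the composite element were looked for in the promoter of each member, because it is the feature that ties many of them to ATF4. The motif was TGATGNAAN, which reads NTTNCATCA on the other strand, and both strands were searched in the 250 bases before and 50 bases after each gene start in the RefSeq promoter table (build GRCm38.p6). Of the 39 members 31 had such a window, and 12 of the 31 (38.7%) held the motif, against 1215 of 27025 genes with a window (4.5%). By group, 6 of 13 ATF4 targets and stress genes, 5 of 8 synthetases and 1 of 10 metabolic enzymes held it. Many members were listed because they are known ATF4 targets, so this share describes the list, and a match is no proof of binding. The stretches around the motif are shown for members that could also be measured, read in the direction of the gene, with the motif in capitals.
Asns (chr6:7693198-7693258, minus strand): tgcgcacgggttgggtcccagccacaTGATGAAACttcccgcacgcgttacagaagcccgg
Chac1 (chr2:119351022-119351082, plus strand): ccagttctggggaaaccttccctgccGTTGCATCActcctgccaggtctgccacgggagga
Trib3 (chr2:152344029-152344057, minus strand): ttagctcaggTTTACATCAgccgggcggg
Nupr1 (chr7:126625547-126625607, minus strand): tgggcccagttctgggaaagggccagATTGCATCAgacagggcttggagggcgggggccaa
Vldlr (chr19:27216793-27216853, plus strand): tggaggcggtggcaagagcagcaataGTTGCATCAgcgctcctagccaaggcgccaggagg
Aars (chr8:111033703-111033763, plus strand): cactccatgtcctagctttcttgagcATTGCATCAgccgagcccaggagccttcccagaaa
Gars (chr6:55037944-55038004, plus strand): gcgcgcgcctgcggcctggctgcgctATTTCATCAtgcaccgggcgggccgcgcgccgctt
Iars (chr13:49682126-49682154, plus strand): cactgtcagtATTGCATCAcctccagacg
Tars (chr15:11399640-11399700, minus strand): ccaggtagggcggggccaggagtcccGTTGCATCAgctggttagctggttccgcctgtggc

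In these promoters the first base of the motif lay 23 bases before the start of Asns and 31 before that of Gars. It lay 16 bases before the start of Tars, 111 before that of Nupr1 and 113 before that of Aars. The distance was 194 bases for Chac1 and 201 for the later start of Vldlr. The window of the earlier Vldlr start held no match. In Trib3 and Iars the motif lay just after the start, and Aars had a further match 9 bases after its start. No match was found in the windows of Ddit3, Phgdh, Psat1 or Sars, which says only that these letters are not in these windows.

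Between 19588 and 20627 probes per array were detected. Stk11, the deleted gene, had log2 intensities of 8.93 and 9.01 in the LKB1-SCKO pools and 9.70 and 9.83 in the control pools (limma, log2 fold change -0.80, SE 0.133, adjusted p = 0.0448). When 1 pool was left out, this value ran from -0.86 to -0.73 and the call was lost each time. Over all genes tested, 267 rose (2.46%) and 145 fell (1.34%) in LKB1-SCKO nerves at an adjusted p under 0.05 (limma), 3.79% in all. The Schwann cell markers Mbp, Pmp22 and Mag were detected in every pool, with log2 fold changes of -0.05, -0.42 and 0.26 and none past the threshold. Markers of some other cells differed between genotypes or pools. The mean log2 intensity of 4 measured proliferation markers was 7.75 and 7.13 in LKB1-SCKO pools against 5.56 and 5.59 in control pools, all 4 past the threshold. Of these 4, Top2a was detected on no control array and entered only through the LKB1-SCKO arrays, whereas Birc5, Cdk1 and Nusap1 were detected on all arrays. The mean of 5 macrophage markers was 9.97 and 9.91 against 8.94 and 9.23, 2 of them (Cx3cr1 and Laptm5) past the threshold. Some of these marker calls were lost under the alternatives given at the end. Likewise 2 red blood cell markers averaged 11.70 and 13.10 against 10.74 and 10.30, neither past the threshold, and 5 skeletal muscle markers averaged 9.60 and 11.53 against 11.32 and 11.40, lowest in LKB1-SCKO 1. The 4 fibroblast markers averaged 13.25 and 12.89 against 13.27 and 13.58, all 4 with a value below 0 and none past the threshold. The 3 adipocyte markers averaged 10.06 and 9.64 against 9.75 and 8.73, lowest in control 2 and none past the threshold. Closer between genotypes were 3 endothelial markers, with means of 8.03 and 8.05 against 8.09 and 7.86. So were 3 perineurial markers, with 12.02 and 11.975 against 12.03 and 11.89, none of either list past the threshold. The part of these cells in the values below was not tested.

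No member passed the threshold in either direction, 0 of 32 tested by limma with Benjamini-Hochberg adjustment over all genes, beside 3.79% of all genes tested. At an unadjusted p under 0.05 there were 6 members, 5 with higher and 1 with lower values in LKB1-SCKO nerves. This was 18.8% of the members, beside 22.4% of all genes tested (12% higher and 10.4% lower). The 6 were Ddit3, Aldh18a1, Sars, Iars, Gars and, with lower values, Phgdh. The lowest adjusted p was that of Sars at 0.114.

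Both LKB1-SCKO pools stood above both control pools in 13 members (40.6%, beside 29.3% of all genes tested) and below both in 4 (12.5%, beside 25.8%). Counting probes detected on all 4 arrays, Ddit3, Mthfd1, Iars, Lars and Kars are among the 13 by their brightest probe only. Some dimmer probes also had separate pools where the brightest did not, higher in LKB1-SCKO for Atf4 and lower for Vldlr and Wars. Separate pools in either direction were found for 53.1% of the members, beside 55.1% of all genes tested. The median log2 fold change was 0.06 over 12 ATF4 targets and stress genes, 0.16 over 8 metabolic enzymes and 0.22 over 12 synthetases, against 0.01 over all genes tested. With the mean over probes in place of the brightest probe, these medians were 0.035, 0.066 and 0.155, against -0.001. The medians moved with single pools: that of the ATF4 targets and stress genes was -0.11 without LKB1-SCKO 1 and 0.31 without LKB1-SCKO 2, that of the metabolic enzymes was -0.04 without control 1 and 0.01 without LKB1-SCKO 1, and that of the synthetases was 0.13 without control 2. Of these 32 members 31 were detected on all 4 arrays. Sesn2, the sestrin that senses leucine, was detected on both control arrays and on 1 of 2 LKB1-SCKO arrays.

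**Figure D1:**
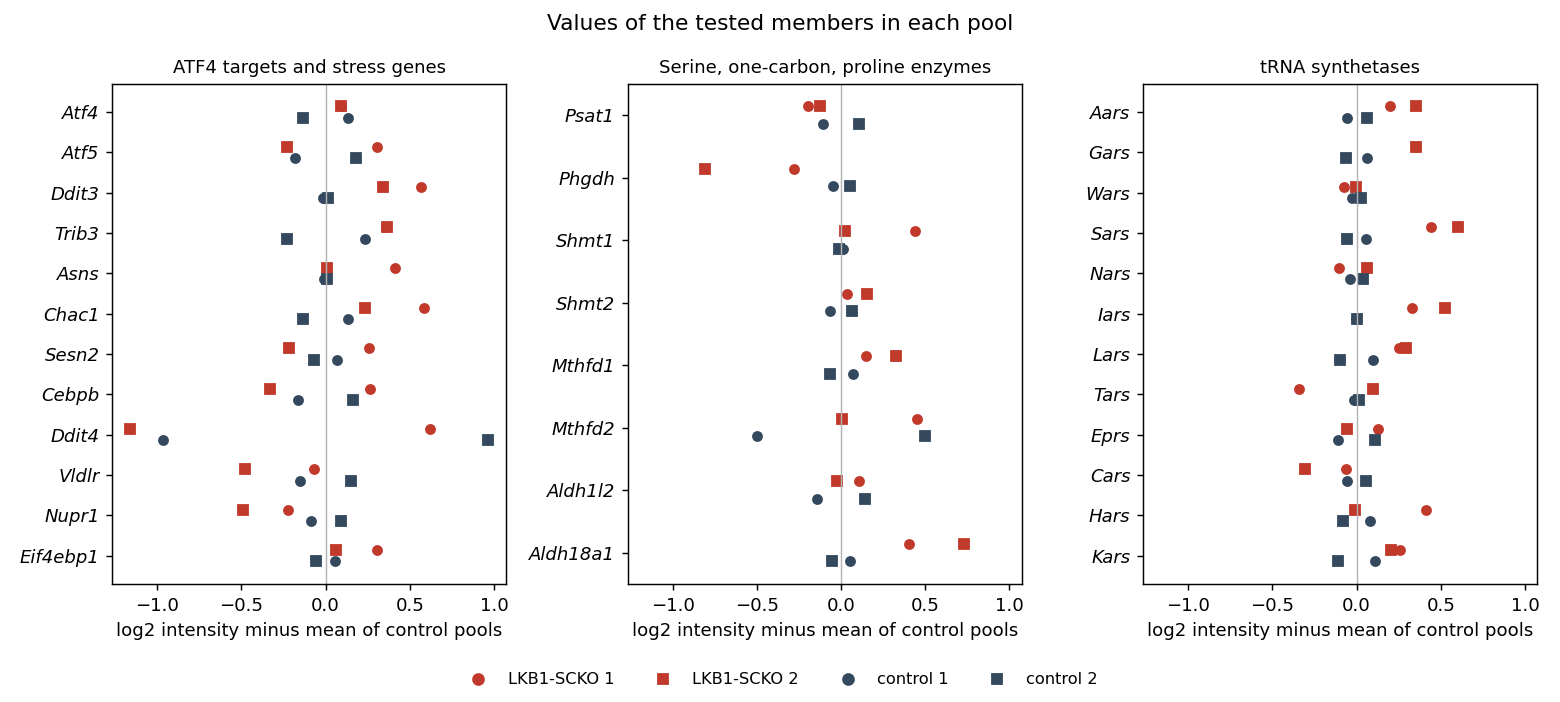
Log2 intensity of each tested member in each of the 4 pools, minus the mean of the control pools, in 3 panels for the 3 groups of genes. Red symbols (upper row of a gene) are LKB1-SCKO pools and dark symbols (lower row) control pools, circles pool 1 and squares pool 2, and symbols can hide each other. Ddit4 has the widest scatter, and in Sars, Iars, Gars and Aldh18a1 both red symbols lie right of both dark ones.

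Among ATF4 targets and stress genes, 0 of 12 passed the threshold. Ddit3 alone had an unadjusted p under 0.05 (limma), 8.33% beside 22.4% of all genes tested. At the brightest probe, pools of the genotypes did not overlap for 5 of them. They were higher in LKB1-SCKO for Ddit3, Trib3, Chac1 and Eif4ebp1 and lower for Nupr1. These 5 are 41.7%, beside 55.1% of all genes tested, and the 4 higher ones 33.3%, beside 29.3%. The 8 values above 0 and 4 below it ranged from -0.355 to 0.45.

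Atf4 itself had log2 intensities of 11.47 and 11.47 in LKB1-SCKO pools and 11.51 and 11.25 in control pools. Its log2 fold change was 0.09 (SE 0.148, 95% interval -0.29 to 0.46, adjusted p = 0.765), and the pools overlapped. ATF4 is regulated largely at translation, so its transcript is only a part of its activity. A dimmer Atf4 probe gave 0.455 (limma, unadjusted p = 0.0996). Its pools were separate, with 9.63 and 9.29 in LKB1-SCKO pools and 9.26 and 8.75 in control pools.

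Ddit3 encodes CHOP, a partner and target of ATF4 linked to cell death in prolonged stress. It stood at 10.11 and 9.89 in LKB1-SCKO pools and at 9.53 and 9.56 in control pools, a 1.37-fold difference (log2 fold change 0.45, SE 0.143, 95% interval 0.09 to 0.81, adjusted p = 0.156). Both LKB1-SCKO pools were above both control pools at this probe. A further Ddit3 probe gave 0.35 with overlapping pools, LKB1-SCKO 2 lying between the control pools.

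Chac1, a glutathione-degrading enzyme induced through ATF4, had 7.93 and 7.58 in LKB1-SCKO pools and 7.47 and 7.21 in control pools (log2 fold change 0.41, SE 0.184, adjusted p = 0.267). For Trib3, a pseudokinase that restrains the response, the values were 7.29 and 7.30 in LKB1-SCKO pools and 7.16 and 6.70 in control pools (0.36, SE 0.189, adjusted p = 0.322). In both genes the pools did not overlap, yet the LKB1-SCKO pools cleared the higher control pool by little. The Trib3 value was 0.13 without control 2 and 0.595 without control 1. A dim Trib3 probe was detected on the control arrays only, near background, and gives no direction; averaged with it, the gene stood at 0.03.

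Asns, asparagine synthetase, is one of the best known ATF4 targets and carries the motif close to its start. Its values were 9.73 and 9.33 in LKB1-SCKO pools and 9.31 and 9.33 in control pools (log2 fold change 0.21, SE 0.176, 95% interval -0.24 to 0.65, adjusted p = 0.527). Only LKB1-SCKO 1 was above the rest, and LKB1-SCKO 2 lay between the control pools. Without LKB1-SCKO 1 the log2 fold change was 0.006.

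Nupr1, a small stress-induced chromatin protein, pointed the other way, with 11.001 and 10.73 in LKB1-SCKO pools and 11.13 and 11.31 in control pools (log2 fold change -0.355, SE 0.159, adjusted p = 0.266). Vldlr, a lipoprotein receptor that ATF4 can induce, had 11.22 and 10.81 in LKB1-SCKO pools and 11.14 and 11.44 in control pools (-0.27, SE 0.201, adjusted p = 0.469), and all 3 of its measured probes lay between -0.27 and -0.24. The motif is present upstream of Nupr1 and of the later start of Vldlr, and not in the window of the earlier Vldlr start. Eif4ebp1, which encodes a brake on cap-dependent translation, stood at 0.19 (adjusted p = 0.509). Atf5, a relative of ATF4, at 0.04, Cebpb, a C/EBP partner, at -0.03 and Sesn2 at 0.02 had overlapping pools. Fgf21, a hormone secreted in mitochondrial stress, was detected on LKB1-SCKO 1 alone and was not tested.

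Ddit4, which encodes REDD1, an inhibitor of mTORC1, had the largest spread among the members. Its log2 intensity was 12.58 and 10.79 in LKB1-SCKO pools and 10.99 and 12.92 in control pools. One pool of each genotype was high and the other low, so that the log2 fold change of -0.27 (SE 0.819, 95% interval -2.34 to 1.80, adjusted p = 0.878) covers a wide range. By the smaller of the gaps between pools of a genotype, Ddit4 ranked 5 of 10858 genes.

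**Figure D2:**
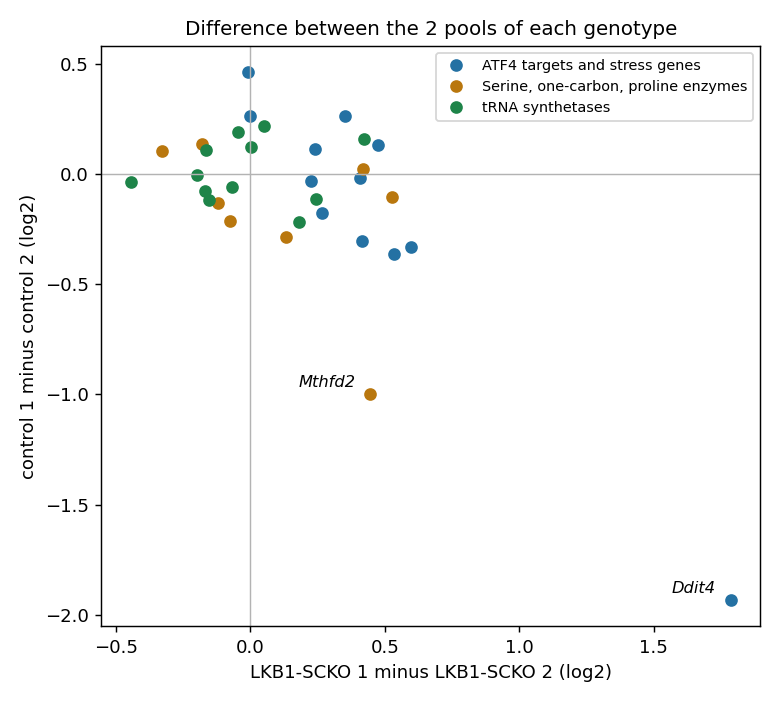
Difference between the pools of a genotype for each tested member, LKB1-SCKO 1 minus LKB1-SCKO 2 on the horizontal axis and control 1 minus control 2 on the vertical axis, both in log2 intensity. Colours are the 3 groups of genes. Ddit4 lies far from all other members at 1.785 and -1.93, and Mthfd2 has a gap of -0.997 between the control pools.

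In the serine, folate and proline enzymes the values went both ways. Of 8 tested, 0 passed the threshold and 2 had an unadjusted p under 0.05 (limma), 25% beside 22.4% of all genes tested. These were Aldh18a1 with higher and Phgdh with lower values in LKB1-SCKO nerves. At the brightest probe pools did not overlap for 5, 62.5% beside 55.1% of all genes tested. Aldh18a1, Shmt1 and Mthfd1 were higher (37.5%, beside 29.3%) and Phgdh and Psat1 lower (25%, beside 25.8%) in LKB1-SCKO. A further Mthfd1 probe had separate pools in the opposite direction (-0.51), so the count of higher genes rests on the choice of probe.

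Phgdh encodes the first enzyme of serine synthesis from glucose. Its values were 8.71 and 8.18 in LKB1-SCKO pools and 8.94 and 9.04 in control pools, 1.46-fold higher in control nerves (log2 fold change -0.54, SE 0.206, 95% interval -1.07 to -0.02, adjusted p = 0.21). Both LKB1-SCKO pools were below both control pools, LKB1-SCKO 2 the further. Without LKB1-SCKO 1 the log2 fold change was -0.81 and without LKB1-SCKO 2 it was -0.28.

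Psat1, the next enzyme of the pathway, had 11.47 and 11.55 in LKB1-SCKO pools and 11.57 and 11.78 in control pools (log2 fold change -0.16, SE 0.142, 95% interval -0.52 to 0.20, adjusted p = 0.542). Its pools did not overlap, and the gap between genotypes was smaller than that between the control pools. The probe of Psph, the last enzyme, was not detected on any array, so the serine pathway was measured at its first and second steps only.

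Aldh18a1, which makes the precursor of proline and ornithine from glutamate, had the highest value of all members. It stood at 8.65 and 8.98 in LKB1-SCKO pools and at 8.30 and 8.19 in control pools, a 1.48-fold difference (log2 fold change 0.57, SE 0.163, 95% interval 0.15 to 0.98, adjusted p = 0.136). Both LKB1-SCKO pools were above both control pools by more than the control pools differed from each other.

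None of the folate enzymes had an unadjusted p under 0.05 at its brightest probe. Shmt1, the cytosolic serine hydroxymethyltransferase, had 6.73 and 6.31 in LKB1-SCKO pools and 6.30 and 6.28 in control pools (log2 fold change 0.23, SE 0.179, adjusted p = 0.494), with LKB1-SCKO 1 alone clearly apart and a value of 0.02 without it. Its mitochondrial relative Shmt2 stood at 0.09 and the mitochondrial formate enzyme Aldh1l2 at 0.04.

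Mthfd1, the trifunctional folate enzyme of the cytosol, had 9.92 and 10.10 in LKB1-SCKO pools and 9.84 and 9.70 in control pools at its brightest probe (log2 fold change 0.24, SE 0.142, adjusted p = 0.384). A dimmer probe had 7.02 and 7.02 in LKB1-SCKO pools and 7.57 and 7.50 in control pools (-0.51, SE 0.136, adjusted p = 0.13 over all probes). Each probe kept the genotypes apart, in opposite directions, so that no direction is given for this gene. Mthfd2, the mitochondrial folate enzyme that ATF4 induces, had 9.21 and 8.76 in LKB1-SCKO pools and 8.26 and 9.25 in control pools (0.23, SE 0.358, adjusted p = 0.747), with control 1 low. Cth and Cbs, the enzymes that make cysteine from homocysteine, were not detected on any array.

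Of the synthetases 0 of 12 passed the threshold, with 8 values above 0 and 4 below it. Sars, Iars and Gars had an unadjusted p under 0.05 (limma), 25% beside 22.4% of all genes tested. Pools were separate for 7 members, 58.3% beside 55.1% of all genes tested. At the brightest probe they were higher in LKB1-SCKO for Aars, Gars, Sars, Iars, Lars and Kars (50%, beside 29.3%). They were lower for Cars (8.33%, beside 25.8%). Further probes of Iars, Lars and Kars, detected on all 4 arrays, had overlapping pools, so the count of higher genes rests on the choice of probe. At the brightest probe all 12 synthetases lay between -0.18 and 0.52.

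Sars, seryl-tRNA synthetase, had 9.32 and 9.48 in LKB1-SCKO pools and 8.94 and 8.82 in control pools, a 1.44-fold difference (log2 fold change 0.52, SE 0.138, 95% interval 0.17 to 0.87, adjusted p = 0.114). The pools of each genotype lay close together and apart from the others, and a dimmer probe gave 0.39 (unadjusted p = 0.0346). Iars, isoleucyl-tRNA synthetase, had 9.75 and 9.94 in LKB1-SCKO pools and 9.42 and 9.42 in control pools (0.43, SE 0.138, adjusted p = 0.164). A further Iars probe, with overlapping pools, gave 0.14.

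Gars, glycyl-tRNA synthetase, had 12.93 and 12.93 in LKB1-SCKO pools and 12.64 and 12.51 in control pools (log2 fold change 0.35, SE 0.130, 95% interval 0.02 to 0.68, adjusted p = 0.201). Aars, alanyl-tRNA synthetase, had 10.41 and 10.56 in LKB1-SCKO pools and 10.15 and 10.27 in control pools (0.28, SE 0.138, adjusted p = 0.305). In both genes the genotypes did not overlap, and the LKB1-SCKO pools of Gars were nearly equal.

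Lars, leucyl-tRNA synthetase, had 12.16 and 12.20 in LKB1-SCKO pools and 12.01 and 11.81 in control pools (0.27, SE 0.138, adjusted p = 0.312), whereas its dimmer probe gave -0.007. Kars, for lysine, stood at 0.23 and Hars, for histidine, at 0.20. Eprs, for glutamate and proline, at 0.03, Nars, for asparagine, at -0.02, Wars, for tryptophan, at -0.04 and Tars, for threonine, at -0.12 had overlapping pools, and Cars, for cysteine, stood at -0.18. Yars, for tyrosine, was detected on LKB1-SCKO 1 alone and was not tested.

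**Figure D3:**
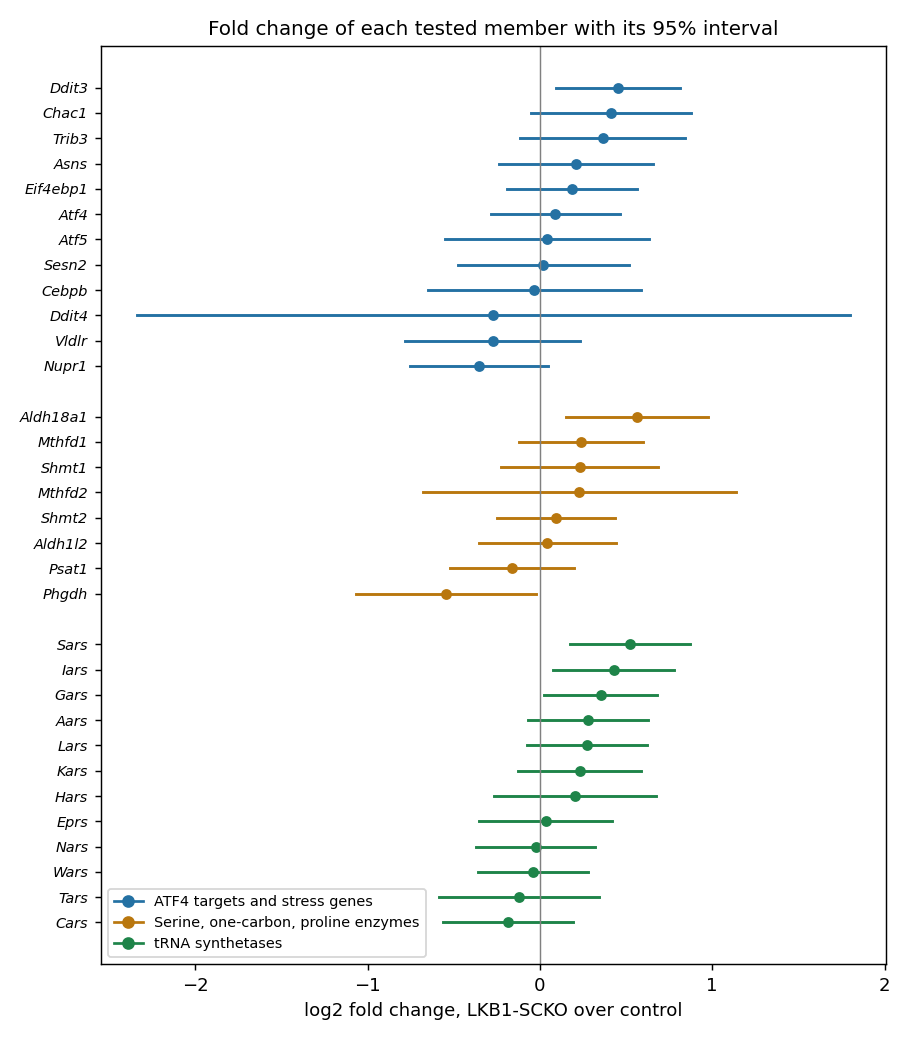
Log2 fold change of each tested member, LKB1-SCKO over control, as a point with its 95% interval from limma, grouped and ordered by size within a group. Intervals of Ddit3, Aldh18a1, Sars, Iars and Gars lie above 0 and that of Phgdh below it before adjustment, and the interval of Ddit4 runs from -2.34 to 1.80.

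Members with more than 1 probe detected on all 4 arrays numbered 13, of which 8 had probes of 1 sign and 5 did not (Eprs, Lars, Mthfd1, Mthfd2 and Wars). Values were also read beside the promoter motif. The 9 tested members with a match had a median log2 fold change of 0.28, 6 of them above 0, and the 16 tested members with a window but no match had 0.09, 12 of them above 0, a difference that was not tested.

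Further genes of the same pathways were read from lists of known members, chosen like the others with earlier results known. Among 12 measured genes of other known ATF4 or CHOP targets 1 rose, 0 fell and 11 did not pass, beside 2.46% and 1.34% of all genes tested. Of the 12, 8 lay above 0 and 4 below it, from -0.80 to 1.27. At an unadjusted p under 0.05 (limma) there were 3, 2 with higher and 1 with lower values, 25% beside 22.4% of all genes tested. Of the higher ones, Slc7a11 was detected on no control array and entered only through the LKB1-SCKO arrays. The lower 1, Slc38a2, named after its values were seen, stood at -0.50 with separate pools (adjusted p = 0.221). Slc1a4, a transporter of serine, alanine and other neutral amino acids, rose to 8.43 and 8.38 in LKB1-SCKO pools, against 7.16 and 7.11 in control pools, 2.41-fold (log2 fold change 1.27, SE 0.126, limma, adjusted p = 0.0122). The pools of each genotype were nearly equal and far from the others. The call was lost when control 1 was left out (1.29, adjusted p = 0.053) and when control 2 was (1.24, adjusted p = 0.0781), and without background correction the size was 0.76 (adjusted p = 0.00919).

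Of 14 measured regulators of the eIF2 branch 0 passed, 2 having an unadjusted p under 0.05 (limma), 14.3% beside 22.4% of all genes tested. Of the brightest, Eif2b5, a subunit of eIF2B, the factor that recharges eIF2, stood at 0.26 (adjusted p = 0.354) and Impact, an inhibitor of the kinase GCN2, at -0.02 (adjusted p = 0.938). Both LKB1-SCKO pools stood above both control pools in 6 of the 14 (42.9%, beside 29.3% of all genes tested). They stood below both in 2 (14.3%, beside 25.8%). Of the 6 with higher pools, 5 were the subunits of eIF2B. Eif2b1 at 0.25, Eif2b2 at 0.43, Eif2b3 at 0.38 and Eif2b4 at 0.20 were picked out after their values were seen.

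Of 9 other cytosolic synthetases and scaffold proteins 0 passed and 2 (22.2%, beside 22.4% of all genes tested) had an unadjusted p under 0.05 (limma). All 9 lay above 0 (beside 51.6% of all genes tested), and the median was 0.19. Qars, for glutamine, stood at 0.415 and Farsb, a subunit of the phenylalanine enzyme, at 0.22. Rars, for arginine, named after its values were seen, had 9.46 and 9.38 in LKB1-SCKO pools and 8.82 and 9.04 in control pools (0.49, adjusted p = 0.137). Of 14 mitochondrial synthetases 0 passed and 2 (14.3%, beside 22.4% of all genes tested) had an unadjusted p under 0.05 (limma). Of the 14, 12 lay above 0 (85.7%, beside 51.6%), and the median was 0.20. The brightest were Fars2 at 0.39 and Iars2 at 0.24.

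Other folate, glycine, methionine and proline enzymes had 0 of 14 past the threshold, with 7 above and 7 below 0. At an unadjusted p under 0.05 (limma) there were 2, 14.3% beside 22.4% of all genes tested. Of these, Gldc was detected on no control array and entered only through the LKB1-SCKO arrays, where it was higher. Gldc also counts among the 7 above 0. Srr, serine racemase, stood at -0.415 and Oat, an ornithine enzyme of proline metabolism, at -0.31. Aldh1l1, the cytosolic 10-formyltetrahydrofolate dehydrogenase, was named after its values were seen. It had 7.17 and 6.97 in LKB1-SCKO pools and 7.81 and 7.69 in control pools (-0.68, SE 0.142, adjusted p = 0.0725), with the genotypes apart.

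**Figure D4:**
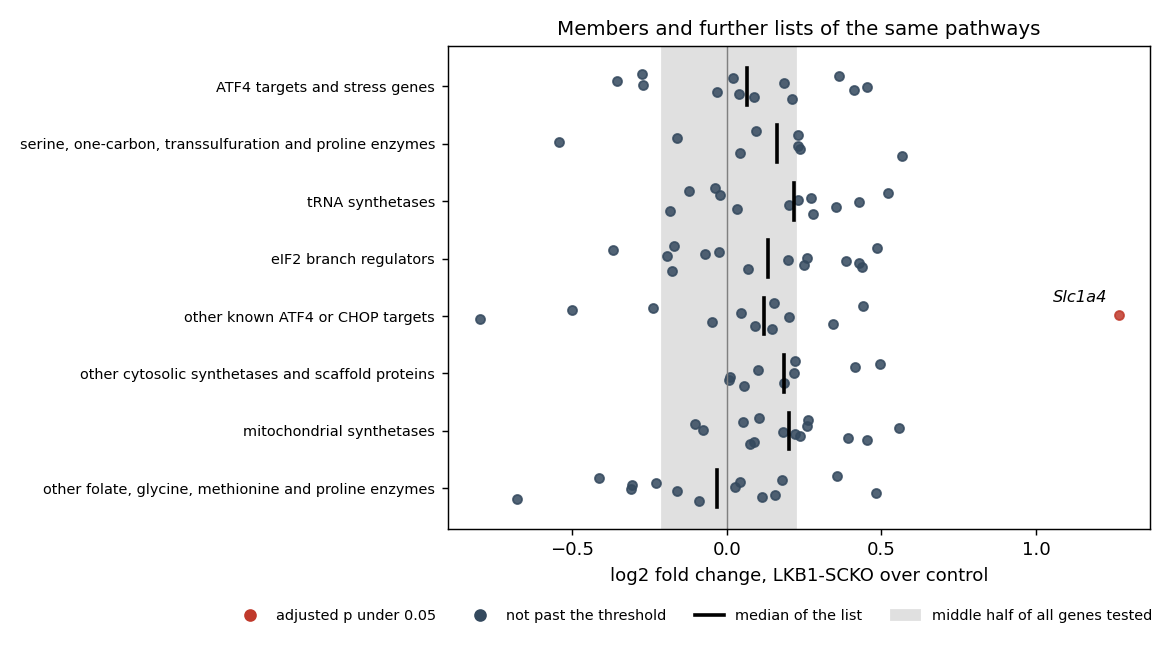
Log2 fold change, LKB1-SCKO over control, of each measured gene in the 3 groups of members and in 5 further lists of the same pathways. The black bar is the median of a list, the grey band spans the lower to the upper quartile of all genes tested, and Slc1a4 at 1.27 is the only gene shown that passed the threshold.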

How the data were processed

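Signal intensity, not normalized, was deposited for 45281 probes with a detection p-value beside each, per the file headers. The submitters' processing notes name GenomeStudio (2010). How the authors' processed intensity table was made is not stated. Starting from the signal intensity, normexp background correction (limma 3.58.1, R 4.3.3, offset 16), quantile normalization and log2 were applied. Probes detected (p-value under 0.05) on both arrays of either genotype entered, 19732 in all, and the brightest represented its gene. Symbols are the platform's, updated by gene identifier (34807 of 34885 probes). The limma fit (lmFit, eBayes, two-sided) had genotype as its term, with Benjamini-Hochberg adjustment over all 10858 genes at 0.05, and its 95% intervals are printed. It was tested on simulated data. Replicates are pools of different mice, and their number limits the precision. Slide was not used.

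Members and lists were chosen with earlier results of these data known. Every member is named. Pool values are given for the 5 members of each group with the lowest unadjusted p and for Atf4, Ddit3, Asns, Phgdh and Psat1, and those of other genes, such as Ddit4, were added after they were seen. Of each further list the genes past the threshold, or otherwise the 2 brightest, are named. Alternatives were other background corrections, scalings, filters, probe summaries, the authors' values, array weights, a replicate block and leaving out each pool.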

Additional observations from a re-analysis of the deposited data

How the results depend on the processing

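No member passed the threshold under any of 15 alternatives, where the lowest adjusted p of a member was 0.0627 (Sars, no background correction). Counts over all genes moved more. Fitted with the replicate number as a block, 132 genes rose and 40 fell. Of the calls named, those of Slc1a4 and Birc5 were kept under the block, and those of Stk11 (adjusted p = 0.109), Cx3cr1 (0.08), Laptm5 (0.112), Top2a (0.0642), Cdk1 (0.0528) and Nusap1 (0.0653) were lost (limma); no member gained one. With the authors' values the calls of Stk11 (adjusted p = 0.0625), Cx3cr1 (0.0515), Laptm5 (0.0676) and Cdk1 (0.0539) were lost (limma). Scaling to the same median lost those of Laptm5 (0.0778) and Cdk1 (0.051), and cyclic loess that of Laptm5 (0.0505). Without the detection filter those of Stk11 (adjusted p = 0.0582), Laptm5 (0.0626) and Cdk1 (0.0556) were lost (limma). Without background correction that of Cdk1 (0.0635) was lost. Without control 2 the log2 fold changes of Top2a, Birc5, Cdk1 and Nusap1 were 2.42, 1.68, 1.45 and 1.97. These calls and that of Cx3cr1 were lost there. Those of Top2a, Cdk1 and Nusap1 were also lost without control 1, and that of Laptm5 whichever pool was left out. Without background correction 259 fell and with an offset of 50, 241 fell. Leaving out 1 pool gave 93 to 261 rises and 19 to 222 falls, lowest without control 2. Deviations of same-numbered pools correlated at -0.172, so the crossed pairing was added after seeing the data, and it gave 230 rises and 119 falls. Under it the calls of Stk11 (adjusted p = 0.068), Laptm5 (0.0671) and Cdk1 (0.0574) were lost (limma). The median of the ATF4 targets and stress genes ran from -0.106 to 0.307 without each pool. That of the metabolic enzymes ran from -0.036 (without control 1) to 0.177 over all alternatives, 0.042 without the detection filter and 0.067 without background correction, and that of the synthetases from 0.122 (without background correction) to 0.253.

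Of 479 member values under alternatives, 453 kept their sign and 26, of 13 members, did not. Scaling to the same median turned Atf4 (-0.014), Atf5 (-0.054), Shmt2 (-0.009), Aldh1l2 (-0.031) and Eprs (-0.05). The mean over probes turned Mthfd1 (-0.137) and Eprs (-0.057), and the authors' processed values turned Sesn2 (-0.03). Leaving out 1 pool gave ranges across 0 for Atf4 (-0.043 to 0.221), Atf5 (-0.229 to 0.307), Sesn2 (-0.219 to 0.259), Cebpb (-0.332 to 0.267), Ddit4 (-1.236 to 0.697), Mthfd2 (-0.269 to 0.728), Aldh1l2 (-0.1 to 0.183), Nars (-0.106 to 0.06), Tars (-0.341 to 0.1), Eprs (-0.076 to 0.144), Hars (-0.009 to 0.413) and Impact (-0.106 to 0.058). The cause was not tested. Dim probes limit the rest: 28 of the 78 member probes were below the filter, 23 of them undetected on every array.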

Other observations

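The division of the pools seen for Ddit4 was shared by other genes, which were found by their values. With a gap of more than 1 on the log2 scale in each genotype, LKB1-SCKO 1 over LKB1-SCKO 2 and control 2 over control 1, there were 16 genes of 10858. The opposite division was found for 11 genes, and the divisions with pool 1 high in both genotypes or pool 2 high in both for 5 and 3. Depp1, a FOXO target, was the most divided of the 16 by the smaller of its gaps, with 8.999 and 6.89 in LKB1-SCKO pools and 7.73 and 10.12 in control pools. Mt2, a metallothionein gene, had 8.34 and 6.14 in LKB1-SCKO pools and 7.57 and 9.28 in control pools. Fkbp5, a co-chaperone of steroid receptors, had 9.65 and 7.88 in LKB1-SCKO pools and 8.45 and 9.46 in control pools, and Nfkbia, the inhibitor of NF-kappa-B, had 10.42 and 9.25 in LKB1-SCKO pools and 9.99 and 11.57 in control pools. The others of the 16 were Arrdc2, Slc10a6, Sla, Aph1b, Cthrc1, Sphk1, Csrnp1, Cd163, Gcg, Me1 and Abca6. In control 1, Aph1b (4.603), Cthrc1 (4.839) and Me1 (4.735) lay below the lowest detected value of that array (5.212). Their gaps between control pools therefore rest on an undetected value.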
